A study of Rattus norvegicus with 16 samples.

Results

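Kidneys of rats dosed for 28 days were compared between animals given 2-amino-4-nitrophenol (ANP), a nitroaromatic amine used in hair dyes, and animals given the vehicle. The comparison uses the arrays titled for day 28, which are 6 of the 16 arrays of the series: 3 from ANP animals and 3 from vehicle animals. All animals were male Crl:CD Sprague-Dawley rats without any genetic change, 5 weeks old when dosing began. The ANP group received 750 mg/kg/day once a day by gavage in corn oil, and the vehicle group received corn oil alone. Each array holds the total RNA of 1 animal's renal outer medulla, and 3 of the 4 or 5 animals of a group were taken, per the labels' protocols. Values below are log2 of the spot's processed signal minus the 75th percentile of its own array, so 0 is the level of that percentile, and a log2 ratio is the ANP mean minus the vehicle mean.

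Of the 61657 probes on the array, 40517 were tested because in at least 1 group of day 28 all 3 arrays showed them well above background. They comprise the chosen probes of 11721 named genes, further probes of the same genes and 20214 probes without a gene name. On the ANP arrays 66.5% to 68.8% of all probes exceeded background clearly, and on the vehicle arrays 64.8% to 67.0%. All 15 marker genes of the outer medulla, cortex and inner medulla that have a named probe were well above background on all 6 arrays, so the samples held transcripts of all 3 zones; among them were Umod and Kcnj1 of the thick ascending limb, Slc22a7 of the straight proximal tubule and Nphs1 of the glomerulus. Pairs of arrays correlated across probes at r of 0.986 to 0.992 within the ANP group, 0.992 to 0.993 within the vehicle group and 0.982 to 0.988 between them. The 3 ANP arrays were hybridised on a slide of their own and the 3 vehicle arrays on another slide that was scanned in a different run, so slide and treatment cannot be told apart at day 28 and no value within a slide can be given. Of 10 spike-in controls, 8 were higher on every ANP array than on every vehicle array, by 0.59 to 1.03 on the log2 scale, and the other 2, which lay at the bottom of the signal range, were lower. The part of this difference in the results was not tested; 94 of the 467 genes called higher had a log2 ratio above the largest spike-in difference.

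The outer medulla holds the straight (S3) segments of the proximal tubule, which take up and secrete organic compounds, and the thick ascending limbs, which reabsorb salt. Cells that meet reactive or reducible chemicals raise a set of protective genes through the transcription factor NRF2, among them quinone reductase, glutathione-conjugating enzymes and export pumps. A separate programme, the integrated stress response, acts through the factor ATF4 and raises genes for amino acid synthesis and for the loading of amino acids onto tRNA.

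After 28 days of ANP, 759 of 11721 genes passed the test (6.48%; limma, Benjamini-Hochberg adjusted p under 0.05 over all probes), 467 of them higher (3.98%) and 292 lower (2.49%). At least 2-fold differences were seen in 100 of the genes called higher and 73 of those called lower, and at least 4-fold differences in 30 and 12. The typical change was smaller, with a median of 1.55-fold among genes called higher and 1.65-fold among genes called lower, while the median log2 ratio of all genes was 0.02. All 759 had groups that did not overlap, as had 33.1% of all genes tested, and 328 of the 467 and 98 of the 292 also lay outside the range of all 6 vehicle arrays of days 14 and 28 (13.9% of all genes did). The counts moved with single arrays: they were 98 higher and 31 lower without vehicle replicate 2, 117 and 58 without vehicle replicate 1, 237 and 148 without vehicle replicate 3, 152 and 96 without ANP replicate 2, and 285 and 161 without ANP replicate 1. When vehicle day 28 was set against vehicle day 14, arrays that also lie on different slides, 740 genes were called higher (6.31%) and 405 lower (3.46%) at day 28 (9.77% in all), more than between ANP and vehicle at day 28.

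**Figure D1:**
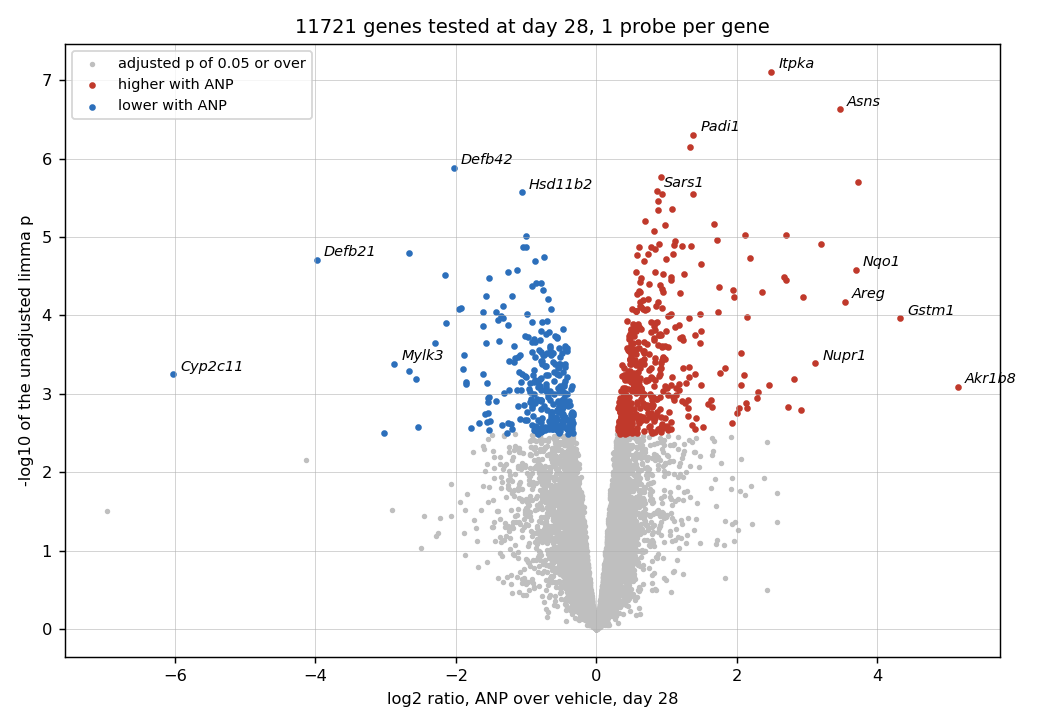
Log2 ratio of ANP over vehicle at day 28 (x) against -log10 of the unadjusted limma p (y) for 11721 genes, 1 probe per gene. Red points are the 467 genes called higher, blue points the 292 called lower and grey points the rest; Itpka and Asns have the smallest p and Akr1b8 and Cyp2c11 the largest log2 ratios of the called genes.

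The largest increases were those of reductases and conjugating enzymes. Akr1b8, an aldo-keto reductase that detoxifies aldehydes, stood at 2.62, 6.50 and 6.12 on the ANP arrays, against -0.94, -0.72 and 1.47 on the vehicle arrays. It was 35.4-fold higher (log2 ratio 5.14 ± 1.11, SE over 3 arrays in each group; adjusted p by limma = 0.0268), and ANP replicate 1 was the lowest of the 3 treated animals by more than the whole vehicle range. Nqo1, the quinone reductase that is the textbook NRF2 target, stood at 0.40, 2.12 and 2.61 on the ANP arrays, against -2.26, -2.51 and -1.18 on the vehicle arrays. This was an increase of 3.70 ± 0.52 on the log2 scale (limma SE, 3 arrays in each group, adjusted p by limma = 0.00719). The groups did not overlap, and replicate 1 was again the lowest ANP animal. The same order was seen in Pir, an iron-binding nuclear protein (1.47, 3.19 and 3.21 on the ANP arrays, against -0.02, -0.16 and -0.04; 6.48-fold higher), in Abcc2, the pump that exports glutathione and glucuronide conjugates (1.92, 4.15 and 3.99, against 0.93, 1.33 and 1.34; 4.44-fold), and in Srxn1, which repairs oxidised peroxiredoxins (1.75, 3.56 and 4.25, against 1.35, 0.73 and 1.08; 4.38-fold). Srxn1 in ANP replicate 1 lay within the range of the vehicle arrays of day 14, where it reached 1.87, while the other 4 genes lay above all 6 vehicle arrays.

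Of 34 NRF2 target genes tested, 17 rose and none fell, 30 were above 0, and the median log2 ratio was 0.65. Over all genes tested the median was 0.02, and the share of them above 0 was not computed. Gclm, the modifier subunit of the enzyme that starts glutathione synthesis, rose 3.30-fold (1.72 ± 0.22; limma adjusted p = 0.00612), with -0.23, -0.08 and -0.11 on the ANP arrays, against -2.05, -1.79 and -1.74 on the vehicle arrays. Its partner Gclc, the catalytic subunit, did not pass (0.20 ± 0.11, SE; limma adjusted p = 0.268). Gclm also differed between the vehicle groups, being 1.35 lower on the log2 scale at day 28 than at day 14 (limma adjusted p = 0.00801). Ptgr1, a reductase of prostaglandins and alkenals, rose 3.58-fold, Akr7a3, an aflatoxin aldehyde reductase, 2.61-fold, Osgin1 2.20-fold, the basolateral pump Abcc3 1.80-fold, the autophagy receptor Sqstm1 1.64-fold and glutathione reductase Gsr 1.48-fold. Hmox1, haem oxygenase 1, did not pass: it stood at -0.91, 1.18 and 2.32 on the ANP arrays, against -1.69, 1.19 and -2.03 on the vehicle arrays, where replicate 2 lay within the ANP range (1.71 ± 0.89, SE; limma adjusted p = 0.252). The regulators themselves were close to 0, with Nfe2l2 (NRF2) at -0.10 ± 0.09 and its inhibitor Keap1 at -0.11 ± 0.10. The list median of the ANP arrays was 0.36 in replicate 1, 0.82 in replicate 2 and 0.90 in replicate 3, against -0.04 to 0.03 on the vehicle arrays. The count of 17 was 5 without vehicle replicate 1, vehicle replicate 2 or ANP replicate 2, 7 without vehicle replicate 3 and 18 without ANP replicate 1.

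The antioxidant response element, to which NRF2 binds, has the core TGACNNNGC. Promoters of 2 of the genes described here are shown, since they carry this core within 250 bases before the annotated start; sequences are from RefSeq (GRCr8), 5′ to 3′ on the strand of the gene, with matches to the core on either strand in capitals. The stretches are chr2:213031885-213032134 (+ strand) and chrX:33851050-33851299 (- strand), and the Pir stretch holds 2 matches.
Gclm: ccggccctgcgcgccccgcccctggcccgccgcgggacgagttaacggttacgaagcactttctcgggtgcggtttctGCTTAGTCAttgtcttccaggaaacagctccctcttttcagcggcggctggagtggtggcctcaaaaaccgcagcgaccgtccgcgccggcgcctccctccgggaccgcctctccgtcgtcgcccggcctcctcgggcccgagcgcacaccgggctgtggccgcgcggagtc
Pir: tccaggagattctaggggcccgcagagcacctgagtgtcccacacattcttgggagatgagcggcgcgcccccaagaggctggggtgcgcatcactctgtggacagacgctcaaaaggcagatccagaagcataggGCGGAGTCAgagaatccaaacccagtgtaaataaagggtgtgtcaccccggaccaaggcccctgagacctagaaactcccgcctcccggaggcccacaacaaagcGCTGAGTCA
The core was found in 3 of the 13 NRF2 target genes that rose and have a promoter in the table (Gclm, Pir and Me1), in 5 of the 12 glutathione S-transferase genes that rose, and in 10.2% of all 27457 promoters of the same length (12.3% of those of genes tested). It was also found in 4 of 27 NRF2 targets and 5 of 19 glutathione S-transferase genes tested, risen or not, and in 2 of the 6 aminoacyl-tRNA synthetase genes that rose. A match is a string of letters in a window and does not show binding.

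**Figure D2:**
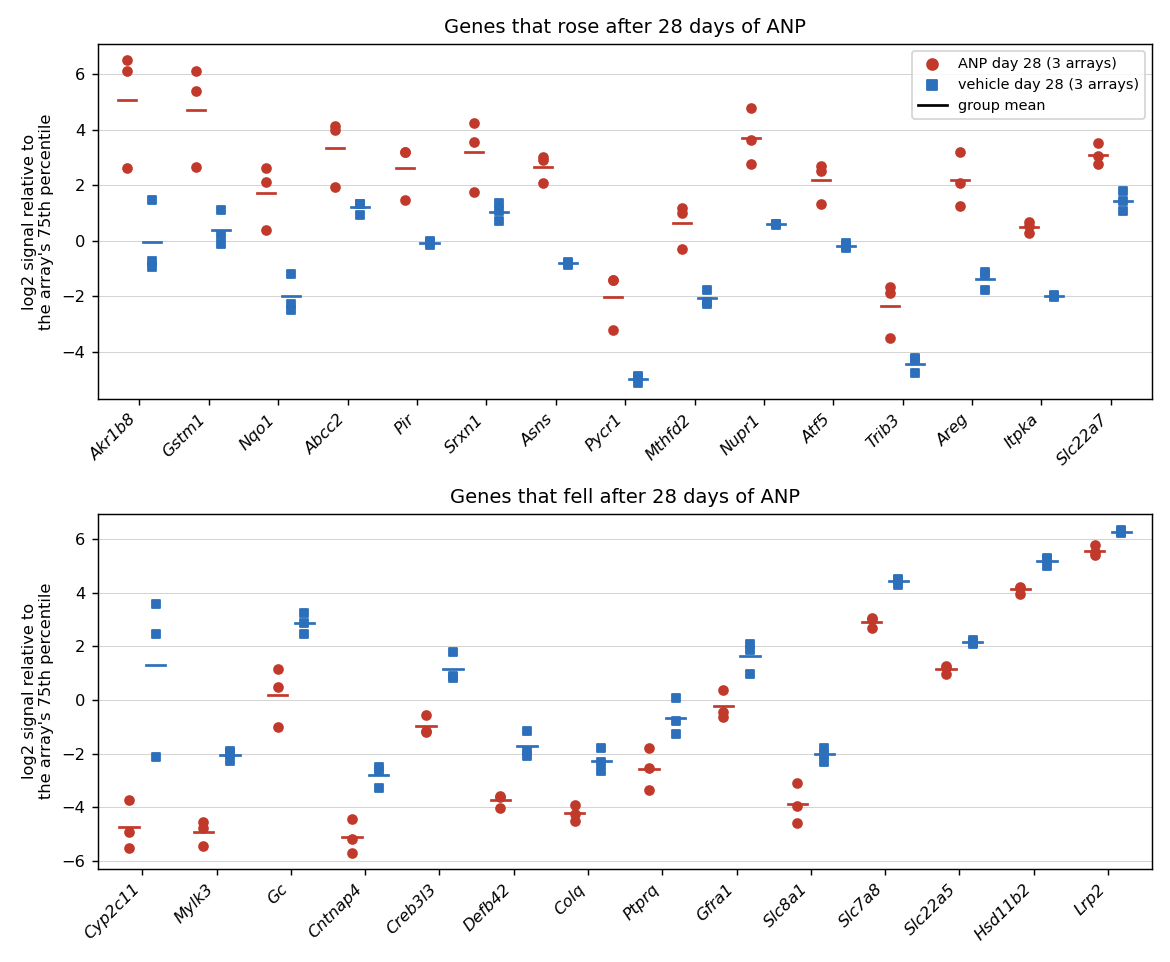
Log2 signal relative to the array's 75th percentile (y) of 15 genes that rose (top) and 14 that fell (bottom), with 1 point per array, ANP red circles on the left and vehicle blue squares on the right; bars are group means of 3 arrays. In each gene shown all ANP points lie on one side of all vehicle points, while Akr1b8 in ANP replicate 1 (2.62) and Cyp2c11 in vehicle replicate 3 (-2.13) stand away from their groups.

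Glutathione S-transferases, which attach glutathione to reactive compounds, rose as a broad family: 13 of 22 tested rose, none fell, and the median log2 ratio was 0.65. Gstm1 stood at 2.66, 6.10 and 5.39 on the ANP arrays, against -0.12, 1.09 and 0.22 on the vehicle arrays. This was an increase of 4.32 ± 0.72 on the log2 scale (limma SE, 3 arrays in each group, adjusted p by limma = 0.0125). Other mu-class members followed, with Gstm7 4.18-fold, Gstm4 2.48-fold, Gstm2 2.47-fold and Gstm5 2.26-fold higher, and Gstm3 at least 3.91-fold higher than vehicle arrays on which it was not well above background. The pi-class enzyme Gstp1, among the most abundant, stood at 8.07, 8.82 and 8.54 on the ANP arrays, against 6.67, 6.90 and 7.37 on the vehicle arrays (2.82-fold; limma adjusted p = 0.00646). The vehicle arrays of day 14 were at 7.93, 7.81 and 7.57 for Gstp1, nearer to the ANP values but below all of them. Between the vehicle groups Gstp1 was 0.79 lower on the log2 scale at day 28 (limma adjusted p = 0.044). Increases reached other classes too, with Gsta3 at 2.03-fold, the microsomal Mgst1 at 2.09-fold, Gstz1 at 1.66-fold, Gstt1 at 1.55-fold and the mitochondrial Gstk1 at 1.49-fold. Gsta6 was at -0.61 and Mgst3 at -0.38, and neither passed. Mu-class genes are near-identical in sequence, so probes of 1 member may also bind transcripts of another. Without vehicle replicate 1 or vehicle replicate 2 the count was 6, and without ANP replicate 2 it was 7.

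Of 15 genes of glucuronidation and sulfation, 7 rose and 1 fell (median log2 ratio 0.82). The UDP-glucuronosyltransferases Ugt2b37, Ugt2b15 and Ugt2b35, which conjugate steroids and xenobiotics, rose 5.49-fold, 4.94-fold and 4.88-fold (limma adjusted p from 0.0263 to 0.0312). These genes are near-identical copies whose probes may bind each other's transcripts, so the value of each is uncertain. In the Ugt1a family, which shares its last exons, Ugt1a2 rose 1.91-fold, Ugt1a6 1.81-fold and Ugt1a1 1.76-fold. Sult2b1, a sulfotransferase of sterols, rose 2.28-fold, while Sult1c2, a phenol sulfotransferase, fell 2.24-fold (-1.16 ± 0.23, SE; limma adjusted p = 0.0197). Sult2b1 was at 1.43, 0.78 and 1.31 on the ANP arrays and overlapped the vehicle arrays of day 14, at 0.70, 0.49 and 0.86. Sult1c2, at 5.89, 5.25 and 5.69, overlapped them too, at 6.10, 6.14 and 5.41. Vehicle day 28 minus vehicle day 14 was -0.70 for Sult2b1 and 0.90 for Sult1c2 (limma adjusted p = 0.0431 and 0.0392). The count of 7 was 2 without vehicle replicate 1 and 4 without vehicle replicate 2, vehicle replicate 3 or ANP replicate 2. Among 27 cytochrome P450 genes none rose and 1 fell, and their median was -0.01. Cyp1a1, the classical target of the aryl hydrocarbon receptor, was at -2.05, -5.45 and -2.41 on the ANP arrays, against -7.69, -5.10 and -4.84 on the vehicle arrays, and did not pass (2.57 ± 1.12, SE; limma adjusted p = 0.176).

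The reductive side of the response included enzymes that make NADPH, with 5 of 14 tested higher and none lower (median 0.16). Among them, malic enzyme Me1 rose 1.66-fold, Pgls 0.58 on the log2 scale, NAD kinase Nadk 1.41-fold and transaldolase Taldo1 1.30-fold; Me1 and Taldo1 are also on the NRF2 list. Without vehicle replicate 1, vehicle replicate 2 or ANP replicate 2 the count was 1, without vehicle replicate 3 it was 2 and without ANP replicate 1 it was 3. Of 24 genes of haem, iron and metal handling, Alas1, the first enzyme of haem synthesis, rose 2.40-fold and biliverdin reductase Blvrb 1.51-fold, and the metallothionein Mt1 was at -0.52 without passing. The median of this list was 0.12, and 3.98% of all genes tested were called higher.

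The next group of large increases belonged to amino acid synthesis and the integrated stress response. Asparagine synthetase, Asns, stood at 2.09, 2.90 and 3.00 on the ANP arrays, against -0.75, -0.86 and -0.82 on the vehicle arrays. It was 11.1-fold higher (3.47 ± 0.30, limma SE, 3 arrays in each group, adjusted p by limma = 0.00202). The distance between the groups was several times the spread within either. Pycr1, which makes proline, was at -3.23, -1.41 and -1.42 on the ANP arrays, against -5.12, -4.86 and -4.92 on the vehicle arrays (7.72-fold higher; limma adjusted p = 0.00999). Mthfd2, of mitochondrial folate metabolism, was at -0.29, 1.00 and 1.18 on the ANP arrays, against -2.27, -1.76 and -2.19 on the vehicle arrays (6.52-fold higher; limma adjusted p = 0.00575). Of the 21 enzymes of serine, proline, asparagine and folate metabolism tested, 6 rose and none fell, the others being Aldh1l1 (1.92-fold), Aldh18a1 (1.72-fold) and Pck2 (1.72-fold). The median of the list was 0.02, and the serine enzymes Phgdh, Psat1 and Psph were at -0.37, -0.21 and -0.34 and did not pass.

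Among 29 genes of the integrated stress response 7 rose and 1 fell (median 0.30). Nupr1, a small stress-induced chromatin protein, stood at 2.76, 3.62 and 4.76 on the ANP arrays, against 0.60, 0.62 and 0.56 on the vehicle arrays, an 8.68-fold increase (limma adjusted p = 0.0201). The transcription factor Atf5 stood at 1.32, 2.50 and 2.70 on the ANP arrays, against -0.26, -0.20 and -0.09 on the vehicle arrays, a 5.13-fold increase (limma adjusted p = 0.00926). The pseudokinase Trib3 rose 4.18-fold, the hormone gene Gdf15 1.76-fold, Atf4 itself 1.73-fold, Jdp2 1.68-fold and Ddit3 (CHOP) 1.60-fold, while Trib1 fell 1.97-fold. Trib1 averaged -2.52 on the ANP arrays, against -2.59 on the vehicle arrays of day 14. Atf4 transcript was at 5.30, 5.44 and 5.18 on the ANP arrays, against 4.71, 4.53 and 4.33 on the vehicle arrays. Without vehicle replicate 2 the count of 7 was 1, without vehicle replicate 1 or ANP replicate 2 it was 2, and without vehicle replicate 3 it was 4. Endoplasmic reticulum chaperones, which mark the unfolded protein response, were near 0 (median -0.02), with Hspa5 at -0.18 and 1 of 21 higher, Dnajb9 at 1.29-fold.

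All 19 cytosolic aminoacyl-tRNA synthetase genes tested had a log2 ratio above 0 and 6 rose (median 0.34, against 0.02 over all genes tested). Sars1, for serine, stood at 1.99, 2.02 and 2.02 on the ANP arrays, against 1.13, 1.12 and 1.19 on the vehicle arrays (1.82-fold; limma adjusted p = 0.00408), with less than 0.1 between the arrays of either group. Cars1 rose 1.94-fold, Nars1 1.65-fold, Iars1 1.64-fold, Yars1 1.52-fold and Mars1 1.43-fold. The list medians of the 3 ANP arrays were 0.21, 0.39 and 0.36, against -0.02 to 0.02 on the vehicle arrays of day 28. The count was 1 without vehicle replicate 1, 2 without vehicle replicate 2 or ANP replicate 2, and 9 without ANP replicate 1.

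ATF4 and its partners bind a C/EBP-ATF composite element with the core TGATGNAA. It was found in the stretch of 250 bases before the start in 3 of the 7 stress response genes that rose (Nupr1, Trib3 and Jdp2), in 2 of the 5 amino acid and folate enzyme genes that rose and have a promoter in the table (Pycr1 and Pck2), in 3 of the 6 synthetase genes that rose (Iars1, Mars1 and Nars1), and in 3.27% of all 27457 promoters (2.15% of those of genes tested). Among all members tested, risen or not, it was found in 7 of 26, 3 of 15 and 5 of 17 for the same lists in that order. Asns (11.1-fold), Mthfd2 (6.52-fold) and Atf5 (5.13-fold) rose more than Trib3 (4.18-fold) and are not among the genes found with a match. Of the members with a match, the stretches of the 3 with the largest increases are given. These stretches are from RefSeq (GRCr8), 5′ to 3′ on the gene's strand, with matches on either strand in capitals. They lie at chr1:190645902-190646151 (- strand), chr3:161275534-161275783 (- strand) and chr10:106420813-106421062 (- strand).
Nupr1: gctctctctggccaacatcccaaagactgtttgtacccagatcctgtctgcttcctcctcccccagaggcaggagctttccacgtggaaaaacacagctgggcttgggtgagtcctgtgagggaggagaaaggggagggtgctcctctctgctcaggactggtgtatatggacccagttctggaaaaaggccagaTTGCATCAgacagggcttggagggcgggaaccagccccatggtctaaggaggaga
Trib3: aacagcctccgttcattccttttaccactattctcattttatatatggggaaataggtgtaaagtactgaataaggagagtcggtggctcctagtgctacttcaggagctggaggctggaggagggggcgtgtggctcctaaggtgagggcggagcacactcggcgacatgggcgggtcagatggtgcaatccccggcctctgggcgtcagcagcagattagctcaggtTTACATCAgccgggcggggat
Pycr1: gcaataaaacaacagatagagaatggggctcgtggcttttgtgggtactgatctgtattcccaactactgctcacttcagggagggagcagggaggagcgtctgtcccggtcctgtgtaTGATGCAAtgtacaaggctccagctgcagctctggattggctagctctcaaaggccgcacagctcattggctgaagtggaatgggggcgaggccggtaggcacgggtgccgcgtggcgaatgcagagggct
Matches of the 2 cores overlapped in 2 of the 27457 promoters. No match in the window says only that these letters are not there.

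**Figure D3:**
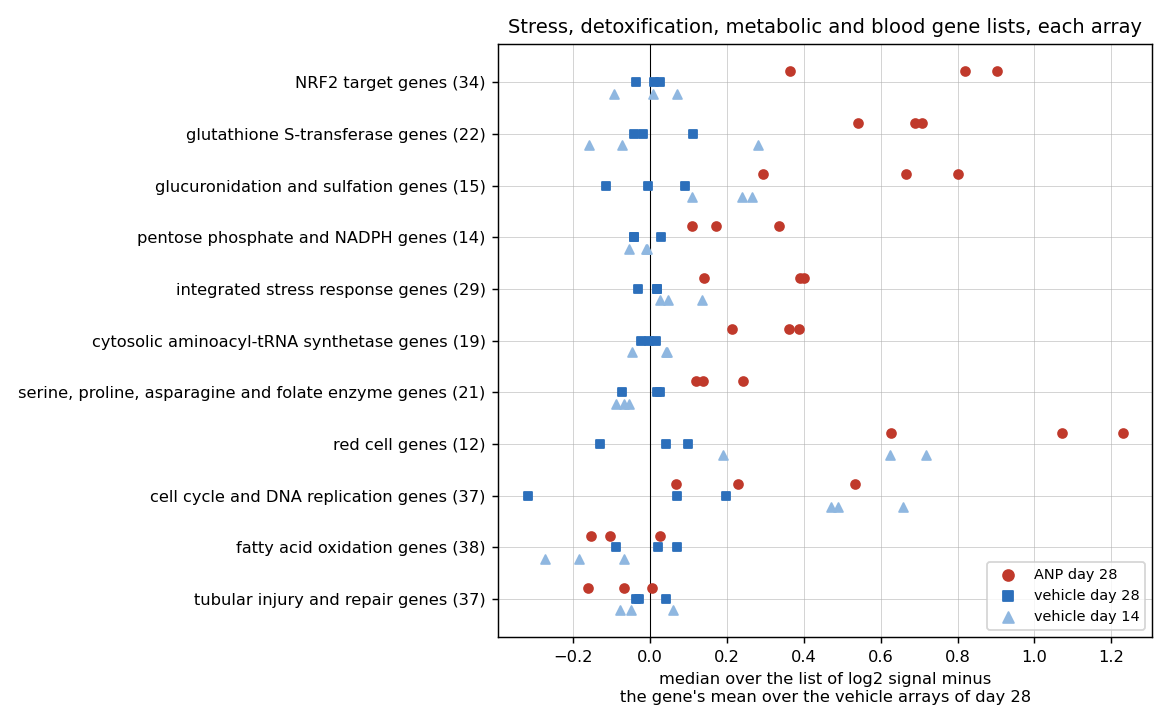
Median over the genes of a list of the log2 signal minus the gene's mean over the vehicle arrays of day 28 (x), for 11 lists (number of genes tested in brackets), with 1 point per array: ANP day 28 (red circles), vehicle day 28 (blue squares) and vehicle day 14 (light triangles). The NRF2 and glutathione S-transferase medians of all ANP arrays lie above all 6 vehicle arrays, whereas the red cell median of ANP replicate 1 (0.63) lies within the vehicle arrays of day 14, which reach 0.72.

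Outside these programmes, Areg (amphiregulin), a ligand of the EGF receptor, stood at 1.26, 3.20 and 2.08 on the ANP arrays, against -1.77, -1.20 and -1.12 on the vehicle arrays. It was 11.7-fold higher (3.54 ± 0.56, limma SE, 3 arrays in each group, adjusted p by limma = 0.0106). Areg was the only one of 12 EGF family ligands, receptors and regulators tested that passed. Egfr was at -0.45, Hbegf at 0.02 and Egf at 0.21. Itpka, an inositol trisphosphate kinase, had the smallest p of all named genes and very even values of 0.26, 0.54 and 0.69 on the ANP arrays, against -1.99, -2.03 and -1.96 on the vehicle arrays (5.62-fold; limma adjusted p = 0.00202). The vehicle arrays of day 14 were at -1.55, -0.96 and -0.81 for Itpka, nearer to the ANP values but below all of them. Between the vehicle groups Itpka was 0.89 lower on the log2 scale at day 28 (limma adjusted p = 0.0214). Gjb5, a connexin of gap junctions, was at -2.44, -2.51 and -1.22 on the ANP arrays. This probe was not well above background on the vehicle arrays, which makes its signal at least 10.96-fold higher. Another probe of Gjb5 was well above background in the vehicle group, so the bound is one of the probe and not of the gene. The second tested probe of Gjb5 was called higher too. Gjb5 passed the filter on dim probes through the ANP group alone. Of the genes called, 25 higher and 10 lower passed it through 1 group alone, among them Gstm3, Magi2, Ccr7 and the genes given with a bound. Of all genes tested, 304 passed through the ANP group alone and 128 through the vehicle group alone. Such a filter favours genes that differ, so no p is given for those called. They stay in the counts of their lists without adding support. Called genes well above background on all 6 arrays number 442 higher and 282 lower.

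Further genes called higher with tight groups were Padi1, a peptidylarginine deiminase (2.60-fold), Cfap68, of cilia (2.52-fold), Smyd2, a lysine methyltransferase (1.90-fold), and Bnip3, a mitochondrial mitophagy receptor (1.92-fold), with limma adjusted p from 0.00239 to 0.00408. Stra6l rose 4.55-fold, and Aldh3b1, an aldehyde dehydrogenase, 4.33-fold. Against vehicle arrays on which they were not well above background, the lysozyme-like gene Lyzl1 was at least 8.74-fold higher, Csmd1 at least 6.24-fold and the alcohol dehydrogenase Adh7 at least 3.20-fold. Cldn14, a claudin that limits calcium reabsorption in the thick ascending limb, was at 0.22, -0.83 and 0.37 on the ANP arrays, against -2.19, -4.21 and -2.04 on the vehicle arrays (6.65-fold; limma adjusted p = 0.0348). Its vehicle values of day 14 were -0.56, -0.26 and 1.41, on the level of the ANP arrays of day 28. Between the vehicle groups it was 3.01 lower on the log2 scale at day 28 (limma adjusted p = 0.02).

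Slc22a7, an organic anion transporter of the S3 segment, rose 3.20-fold (1.68 ± 0.21, limma SE, 3 arrays in each group, adjusted p by limma = 0.00533). It stood at 3.52, 2.75 and 3.05 on the ANP arrays, against 1.42, 1.09 and 1.78 on the vehicle arrays of day 28 and 2.42 to 2.65 on those of day 14, so the ANP values were above all 6 vehicle arrays, by a smaller distance from the earlier ones. Slc22a24 rose 2.13-fold and the urate transporter Slc22a12 1.80-fold, and the carnitine transporter Slc22a5 fell 2.01-fold (limma adjusted p = 0.00575). Slc22a5 averaged 1.16 on the ANP arrays, against 1.17 on the vehicle arrays of day 14, and Slc22a24 averaged 5.29, against 5.10, whereas Slc22a12 lay above all 6 vehicle arrays. The other 18 of 21 genes of the SLC22 and SLCO transporter list did not pass, and the median was -0.07. Of 24 straight proximal tubule genes, 2 rose (3.98% of all genes tested did) and none fell (median -0.06). Slc7a13, its abundant cystine and aspartate carrier, was at 0.15 ± 0.15 (SE). Of 21 thick ascending limb genes only Cldn14 passed (median 0.24), with Umod at 0.21 ± 0.09 (SE).

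The largest decrease was that of Cyp2c11, a cytochrome P450 that is typical of male rats. It stood at -4.94, -3.72 and -5.52 on the ANP arrays, against 2.45, 3.59 and -2.13 on the vehicle arrays. This was a 65.3-fold decrease (-6.03 ± 1.24, limma SE, 3 arrays in each group, adjusted p by limma = 0.0231). The SD of Cyp2c11 was 0.92 over the ANP arrays and 3.03 over the vehicle arrays of day 28. Vehicle replicate 3 was far below the other vehicle animals, yet still above every ANP animal. Gc, the carrier of vitamin D, was at 0.47, 1.14 and -1.02 on the ANP arrays, against 2.46, 3.25 and 2.87 on the vehicle arrays (6.32-fold lower; limma adjusted p = 0.022). Creb3l3, a transcription factor of lipid metabolism, fell 4.39-fold, and Slc16a1, a carrier of lactate and ketone bodies, 2.99-fold. Creb3l3 and Slc16a1 on the ANP arrays overlapped the vehicle arrays of day 14, which were at 0.58, 0.14 and -0.71 for Creb3l3 and at 0.52, -0.50 and -1.18 for Slc16a1. Cyp2c11 and Gc lay below all 6 vehicle arrays.

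Other named decreases were those of Mylk3, a myosin light chain kinase (7.34-fold), the beta-defensin Defb42 (4.08-fold), Ptprq, a receptor phosphatase of podocytes (3.73-fold), Cntnap4 (4.93-fold), Colq (3.89-fold), the GDNF receptor Gfra1 (3.68-fold), the sphingomyelinase Smpd3 (3.63-fold), the sodium-calcium exchanger Slc8a1 (3.63-fold), Mpped1 (3.45-fold), Btg1b (3.19-fold), Cilp (3.07-fold), Ppfia4 (3.06-fold), Spns3 (3.04-fold), Klrb1c (2.98-fold) and Or52z12 (2.94-fold). One other probe of Smpd3 had the opposite sign. Defb42 was at -3.63, -3.59 and -4.01 on the ANP arrays, against -1.88, -1.16 and -2.10 on the vehicle arrays, and had one of the smallest p among decreases (limma adjusted p = 0.00394). A second beta-defensin, Defb21, was at least 8.08-fold lower, with no ANP array well above background, and Dnajc5b and Tbx4 were at least 2.50-fold and 2.42-fold lower on the same terms. Of these genes Defb42, Defb21, Ptprq, Smpd3, Mpped1, Ppfia4, Spns3, Klrb1c and Tbx4 lay below all 6 vehicle arrays. Hsd11b2, which protects the mineralocorticoid receptor of collecting duct principal cells from glucocorticoids, was at 4.19, 3.97 and 4.23 on the ANP arrays, against 5.31, 5.27 and 5.00 on the vehicle arrays (2.09-fold lower; limma adjusted p = 0.00408), and at 4.08, 4.13 and 4.28 on the vehicle arrays of day 14.

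Fatty acid oxidation genes had 4 of 38 members lower (2.49% of all genes tested were) and none higher, with a median of -0.13. Among them were Pex11a (1.72-fold), Eci1 (1.65-fold) and Hadh (1.52-fold). Between the vehicle groups the list ran the other way, with a median of 0.21 for day 28 minus day 14 and 7 genes called higher. Eci1 was at 5.14, 5.06 and 5.03 on the ANP arrays, against 4.74 to 5.19 on the vehicle arrays of day 14, and Pex11a and Hadh overlapped those arrays too. Of genes that did not pass, Cpt1a was at 0.37 and the regulator Ppara at -0.28. The count was 1 without vehicle replicate 1 or vehicle replicate 2 and 2 without ANP replicate 2. None of 40 oxidative phosphorylation genes passed in the fit, with log2 ratios from -0.09 to 0.33 and a median of 0.14.

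The lists of glomerular, convoluted proximal, distal tubule and collecting duct genes had medians below 0, though most of their members did not pass. Of 20 podocyte and mesangial genes 9 fell and none rose (median log2 ratio -0.76), among them Clic5 (1.73-fold), Podxl (1.70-fold), Ptpro (1.99-fold) and Magi2 (2.54-fold; it was well above background on 2 of the 3 ANP arrays). The slit diaphragm gene Nphs1 was at -1.33 and did not pass. Ptpro stood at 1.13, 1.47 and 1.35 on the ANP arrays, against 2.31, 2.42 and 2.21 on the vehicle arrays of day 28, and at 0.57, 0.98 and 0.08 on the vehicle arrays of day 14. The ANP values thus lay between the 2 vehicle groups. The count of 9 was 2 without vehicle replicate 2 or ANP replicate 2, 3 without vehicle replicate 1, and 4 without vehicle replicate 3 or ANP replicate 1. Of 24 genes of the convoluted proximal tubule (S1/S2), 3 fell and 1 rose (median -0.64): Gc, the amino acid transporter Slc7a8 (2.84-fold) and megalin, Lrp2 (1.64-fold), fell, and Slc22a12 rose. Lrp2 was at 5.40, 5.78 and 5.54 on the ANP arrays, against 6.24, 6.36 and 6.27 on the vehicle arrays. Without any 1 of the 3 vehicle replicates no gene of this list passed in the fit, and with only the 6 arrays of day 28 fitted 7 were lower and 1 higher. Of 15 distal convoluted and connecting tubule genes, Slc8a1 and Kl (klotho, 1.91-fold) fell (median -0.52). Of 15 principal cell genes Hsd11b2, Gata3 and Scnn1g fell (median -0.37), and of 17 intercalated cell genes the proton pump subunits Atp6v1b1 and Atp6v1g3 fell (median -0.39).

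The same lists differed between vehicle animals of days 28 and 14, and in the opposite direction. The median of vehicle day 28 minus vehicle day 14 was 0.67 for podocyte and mesangial genes, with 10 of 20 called higher, 0.98 for convoluted proximal tubule genes, with 13 of 24, 0.62 for distal convoluted and connecting tubule genes, with 9 of 15, and 0.64 for intercalated cell genes, with 6 of 17. Summed linear signal of the podocyte and mesangial list, in units of the array's 75th percentile, was 42.3 to 50.4 on the ANP arrays, 66.9 to 77.2 on the vehicle arrays of day 28 and 35.2 to 42.4 on those of day 14. For the convoluted proximal tubule list it was 1307 to 1710 on the ANP arrays, 1822 to 1982 on the vehicle arrays of day 28 and 1082 to 1662 on those of day 14. The vehicle arrays of day 28 were thus the highest of these groups. Set against the mean of both vehicle groups, an alternative chosen after the data were seen, the medians were -0.27 for podocyte and mesangial genes with 5 of 20 lower, and 0.01 for convoluted proximal tubule genes with 2 lower and 1 higher. Whether the amount of cortex in the tissue samples differed was not tested, and in such samples fewer cells of a type and less RNA per cell cannot be told apart.

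**Figure D4:**
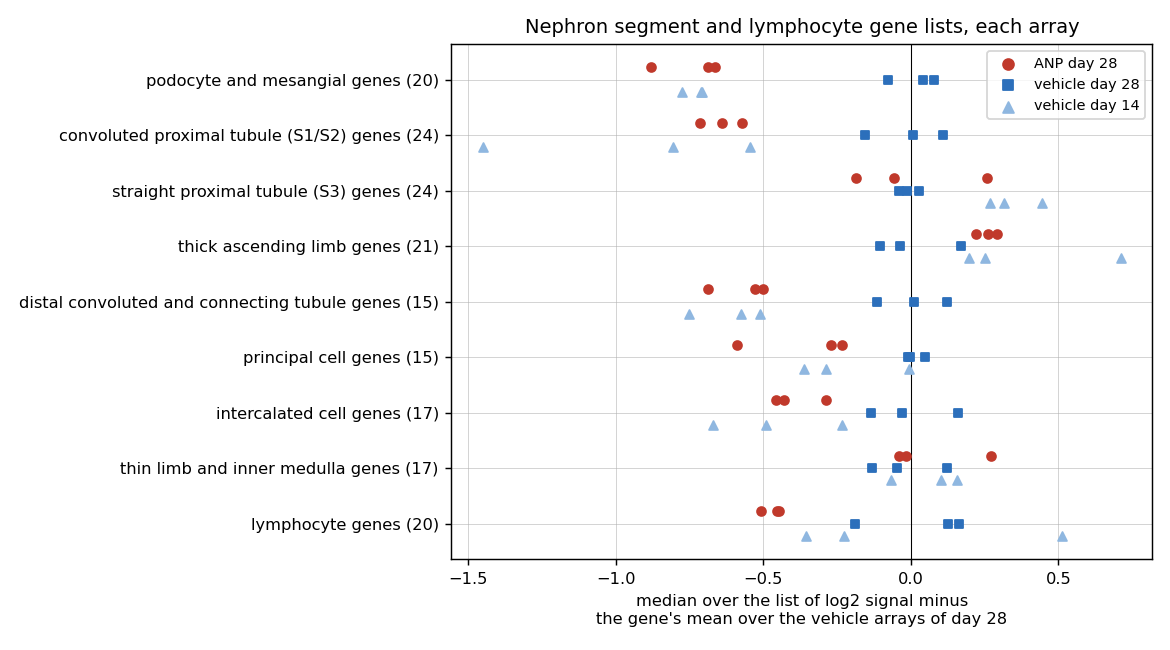
Median over the genes of a list of the log2 signal minus the gene's mean over the vehicle arrays of day 28 (x), for nephron segment lists and lymphocyte genes (number of genes tested in brackets), with 1 point per array: ANP day 28 (red circles), vehicle day 28 (blue squares) and vehicle day 14 (light triangles). For podocyte and mesangial genes the ANP arrays lie at -0.88, -0.66 and -0.69, near the vehicle arrays of day 14 at -0.71, -0.71 and -0.78 and away from the vehicle arrays of day 28.

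Red cell genes had the highest median of all lists, 0.99, with 8 of 12 tested higher and none lower. The beta-globin gene Hbb-bs stood at 6.35, 7.01 and 7.47 on the ANP arrays, against 5.24, 5.53 and 5.62 on the vehicle arrays (2.79-fold; limma adjusted p = 0.0156). Ahsp, the chaperone of alpha-globin, rose 4.03-fold, Alas2, the erythroid enzyme of haem synthesis, 3.10-fold, the erythroid transcription factor Klf1 2.38-fold and Bpgm 1.49-fold, and Rhd, a blood group gene that is on no list, 4.29-fold. Globin genes have near-identical copies, so their probes are not independent. The vehicle arrays of day 14 were higher than those of day 28, at 5.82, 6.58 and 6.19 for Hbb-bs, so ANP replicate 1 lay within them, while Klf1 on all ANP arrays was above all 6 vehicle arrays. Ahsp, Alas2 and Rhd also overlapped the vehicle arrays of day 14, which reached 0.55, 1.62 and -2.10 in that order. Ahsp was at 0.50, 0.20 and 1.96 on the ANP arrays, and ANP replicate 1 was at 0.98 for Alas2 and -2.43 for Rhd. The summed signal of the red cell list was 1307 to 1990 on the ANP arrays, 749 to 910 on the vehicle arrays of day 28 and 881 to 1362 on those of day 14. The amount of blood in the samples was not tested as a cause. The count was 2 without vehicle replicate 1 or 2, 3 without ANP replicate 2 and 4 without vehicle replicate 3.

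Of 37 genes of tubular injury and repair, 2 were higher and 2 lower at day 28, with a median of -0.08. Over all genes tested 3.98% were called higher and 2.49% lower. Havcr1 (kidney injury molecule 1) was at -3.33, -3.64 and -3.84 on the ANP arrays, against -2.89, -4.09 and -3.74 on the vehicle arrays, and its log2 ratio of -0.03 ± 0.53 (SE) did not pass (limma adjusted p = 0.98). Clu (clusterin) was at -0.22 ± 0.21 and Spp1 (osteopontin) at 0.48 ± 0.46. Lcn2 was at 0.84 ± 0.79, with -1.75, -1.49 and -1.22 on the ANP arrays, against -1.32, -4.54 and -1.14 on the vehicle arrays. Without vehicle replicate 2 it was -0.26. The members that passed were Anxa2 (1.70-fold) and Cryab (1.60-fold), which rose, and Cdh6 (1.72-fold) and Vnn1 (2.56-fold), which fell. Anxa2 was at 4.61, 4.64 and 4.58 on the ANP arrays, within the 4.22, 4.64 and 4.63 of the vehicle arrays of day 14, and Cryab was lower on every ANP array (7.53, 7.59 and 7.47) than on any of those (7.79, 7.85 and 8.01). For the decreases, Vnn1 averaged 2.47 on the ANP arrays, against 2.14 on the vehicle arrays of day 14, and Cdh6 averaged 0.19, against 0.05.

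Of the inflammatory and immune lists, 1 gene each passed as lower, where 2.49% of all genes did. Of 20 lymphocyte genes 18 were below 0, with a median of -0.39, against 0.02 over all genes tested. Ccr7, a homing receptor of lymphocytes, fell 2.38-fold, with 2 of 3 ANP arrays well above background. It passed the filter on dim probes through the vehicle group alone, so its call adds no support. The T cell genes Cd27 and Zap70 were at -1.76 and -0.88 and did not pass. Of 28 chemokine, cytokine and adhesion genes only Cxcl11 passed, 2.02-fold lower (median -0.14), of 31 macrophage and complement genes only C4a, 2.18-fold lower (median -0.08), and of 29 interferon-stimulated genes only Oas2, 1.58-fold lower (median -0.09). Of 32 genes of extracellular matrix and fibrosis only Thbs1 passed, 1.82-fold lower (median -0.06). The list sums of lymphocyte genes were 3.47 to 3.59 on the ANP arrays, against 4.06 to 5.41 on the vehicle arrays of day 28 and 3.42 to 5.44 on those of day 14, a range that holds the ANP values.

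Of 37 cell cycle and DNA replication genes 31 were above 0, with a median of 0.27, against 0.02 over all genes tested. The 3 that rose were the replication factor Cdc6 (2.02-fold), Birc5 (1.77-fold) and thymidine kinase Tk1 (1.55-fold). On the vehicle arrays of day 28 the list was lower than at day 14 by a median of 0.53, with 11 genes called lower, and against the mean of both vehicle groups the median was -0.05 and no gene passed. Among 20 p53 target genes Gdf15 alone passed, while Cdkn1a stood at 0.20 and Mdm2 at 0.14. Among 17 heat shock genes 2 were higher, Hspb8 (2.09-fold) and Cryab, and no proteasome or immediate early gene passed among the 31 and 18 tested in the fit. Of 14 genes of fat cells, Pparg, the master regulator of fat cell formation, rose 2.34-fold and Cidea, of lipid droplets, 2.36-fold; Pparg averaged -0.52 on the ANP arrays, against -0.59 on the vehicle arrays of day 14, while Cidea lay above all 6 vehicle arrays. Of 24 cholesterol synthesis genes Tm7sf2 (1.79-fold) and Pmvk (1.40-fold) rose. Of 29 hypoxia and glycolysis genes Egln3 (2.00-fold) and Bnip3 rose.

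Of the 22 endothelial genes Kdr (1.43-fold) and Podxl, which podocytes also express, fell, and of 26 claudin and connexin genes Gja5, a vascular connexin, fell 1.57-fold beside the increases of Gjb5 and Cldn14. Of 15 muscle genes Myh11, of smooth muscle, fell 2.16-fold. Among 17 genes of the thin limb and inner medulla Cryab rose and Pigr, which carries antibodies into the urine, fell 1.84-fold, and among 11 genes of osmolyte handling only Smpd3 passed. The medians of these 5 lists lay between -0.13 and 0.03. Over all genes tested 3.98% were called higher and 2.49% lower. Kdr, Podxl, Gja5, Myh11 and Pigr did not lie below all 6 vehicle arrays, whereas Smpd3 did. On the ANP arrays they averaged 3.48, 3.32, -1.13, -1.31 and -0.64 in that order, without Smpd3. The vehicle arrays of day 14 averaged 3.37, 3.38, -1.54, -1.13 and -0.67.

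Probes without a gene name were called at a rate of 6.87%, with 865 called higher (4.28%) and 524 lower (2.59%) of 20214. Over all 40517 probes, 6.51% were called, 4.04% higher and 2.47% lower. The largest increases were those of probe A_64_P163291, at 1.45, 5.25 and 4.91 on the ANP arrays, against -1.16, -0.82 and 0.28 on the vehicle arrays (21.7-fold; limma adjusted p = 0.0348), and of probe C_CA_D0440, at 3.25, 6.80 and 6.01, against 0.62, 1.76 and 0.85 (19.3-fold; limma adjusted p = 0.013). In both, ANP replicate 1 was the lowest treated animal, as in Akr1b8 and Gstm1. The largest decreases were those of probes A_64_P022620 (18.1-fold) and A_44_P302221 (17.9-fold), in which vehicle replicate 1 was the lowest vehicle array and ANP replicate 1 the highest ANP array. Probes without any accession were called in 9.82% of cases, 275 higher and 45 lower, against 6.12% for probes of curated RefSeq transcripts, with 806 higher and 509 lower.

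The response was set beside that of day 14 in the same fit, where the vehicle group of each day is its own control. At day 14, 0.316% of genes passed: 28 genes were higher (0.239%) and 9 lower (0.0768%), and of these 37 genes 28 were also called at day 28, all in the same direction. Those 28 are 75.7% of the day 14 calls and 3.69% of the day 28 calls. Of the 759 genes called at day 28, 666 (87.7%) had the same sign at day 14, as had 65.0% of all genes tested. No probe passed the test of the difference between the days (limma, smallest adjusted p = 0.27; 0%), while 2378 probes higher and 1747 lower (10.2% together) had an unadjusted p under 0.05, so no gene is shown to respond differently at day 28.

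Side by side, Akr1b8 had log2 ratios of 5.90 and 5.36 in the single pools of days 1 and 7, 5.58 ± 1.11 at day 14 and 5.14 ± 1.11 at day 28, and was thus close to level. Nqo1 followed with 3.73, 3.17, 2.62 ± 0.52 and 3.70 ± 0.52. Havcr1 was at 9.63, 4.23, 2.10 ± 0.53 and -0.03 ± 0.53, and Hmox1 at 7.88, 4.57, 2.97 ± 0.89 and 1.71 ± 0.89, so both had their lowest value at day 28. Gstm1 ran the other way, at 1.18, 2.55, 3.27 ± 0.72 and 4.32 ± 0.72. Nupr1 was at 0.20, 0.04, 1.28 ± 0.61 and 3.12 ± 0.61, Asns at 1.71, 0.88, 1.69 ± 0.30 and 3.47 ± 0.30, and Gclm at -0.20, -0.09, 0.01 ± 0.22 and 1.72 ± 0.22. Slc22a7 was at -2.60 and -0.02 in the pools, 0.15 ± 0.21 at day 14 and 1.68 ± 0.21 at day 28. Vehicle day 28 minus vehicle day 14 was -1.14 for Slc22a7 and -1.35 for Gclm (limma adjusted p = 0.0109 and 0.00801). This shift of the control is part of the difference between their ratios. The pools have 1 array per group and no error, and none of the differences between days 14 and 28 passed.

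**Figure D5:**
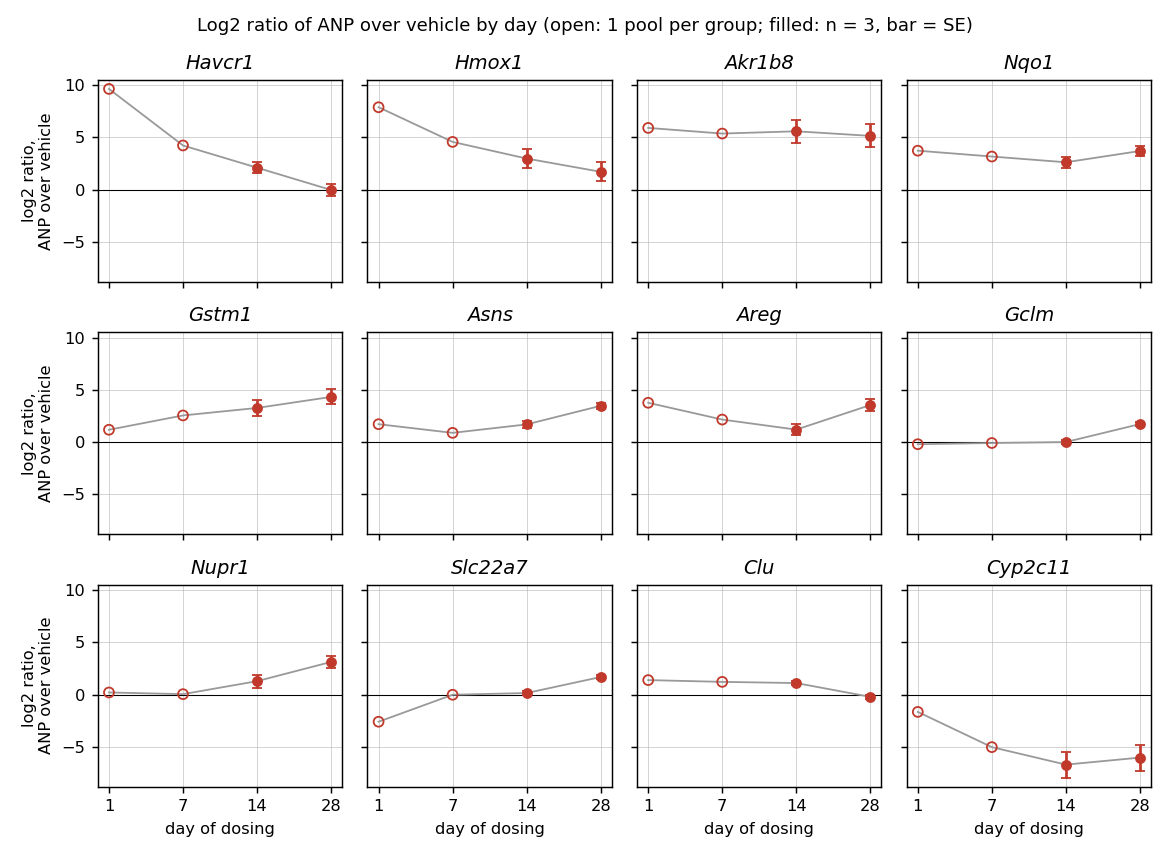
Log2 ratio of ANP over vehicle (y) by day of dosing (x) for 12 genes. Open circles are single pools per group without error. Filled circles are ratios from 3 arrays per group with the limma SE, whose spread is shared by the 12 arrays of days 14 and 28. Havcr1 and Hmox1 are lowest at day 28, Akr1b8 and Nqo1 stay above 2, and Gstm1, Asns, Gclm and Nupr1 are highest at day 28. The vehicle groups of days 14 and 28 differed for Gclm, Slc22a7 and Clu (limma adjusted p under 0.05).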

How the data were processed

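RNA of the renal outer medulla was hybridised to one-colour Agilent rat arrays, 1 animal per array at days 14 and 28 and a pool of 3 animals per group at days 1 and 7. Per the submitters' processing notes, Agilent Feature Extraction 10.7 made the deposited files; the processed signal is, per the file headers, an intensity per spot. A second deposited table holds a ratio per probe: it equals the processed signal over the 75th percentile of the same array, apart from rounding (lowest r over 12 arrays 0.99991; column medians of the 6 arrays 0.099 to 0.107), and it was used as an alternative. Log2 of the processed intensity minus the array's 75th percentile was fitted with lmFit and eBayes of limma 3.58.1, run in R 4.3.3 (12 arrays in 4 groups of days 14 and 28, 8 residual degrees of freedom), and p-values were Benjamini-Hochberg adjusted over 40517 probes. Control spots were left out, each other probe had 1 entry per array, and spots flagged as outliers were set to missing.

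A gene's probe was that of its named probes whose mean across the 12 arrays was highest. Named genes were the 20 largest called changes in each direction measured above background on each of the 6 arrays, up to 4 genes per direction with only a bound, the 2 largest unnamed probes and the 8 smallest p per direction, up to 4 called members of each of 41 gene lists per direction, a fixed panel, and list members given as examples. Genes known only by a locus number go unnamed. The members and lists were chosen with earlier results of these data known. A bound compares the bright group's mean with the lowest signal well above background, or the dim probe's own if higher. The replicate numbers do not pair the samples: same-numbered deviations correlated at -0.037, 0.045 and 0.067. The labels name 1 animal per array, so p-values measure the spread between animals within a group. This spread was pooled over the 4 groups of the 12 fitted arrays and was not taken from day 28 alone. With only the 6 arrays of day 28 fitted, 221 of the 759 genes called were still called. Each group of day 28 lay on a single slide, so the p-values do not cover differences between slides. In data simulated for the comparison of day 28 over 40494 probes, 22.5% of log2 changes of 0.5 and 62.5% of changes of 1 were recovered, and 6.59% of calls were false. Alternatives were quantile normalization, scaling to the median, normexp background correction, other filters, fewer arrays, an intensity trend, the replicate number or slide as a block, 1 probe per gene, leaving out each array, and, added after the data were seen, both vehicle groups together. Normexp used the median signal, since the files hold no mean signal. Promoters come from RefSeq (GRCr8). Some genes that the rule names are not reported here, though they stay in the counts and medians.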

Additional observations from a re-analysis of the deposited data

Results flagged for a closer look

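Spike-in transcripts, added to each RNA sample in a known mix and not used in any comparison, were higher on every ANP array than on every vehicle array of day 28 for 8 of 10 probes. Relative to each array's 75th percentile the log2 difference was 0.589 for E1A_r60_1, 1.03 for E1A_r60_a107, 0.702 for E1A_r60_a135 and 0.66 for E1A_r60_a20. It was 0.723 for E1A_r60_a22, 0.621 for E1A_r60_a97, 0.734 for E1A_r60_n11 and 0.657 for E1A_r60_n9. These spots lie outside the main measurement. When vehicle day 28 was set against vehicle day 14 the differences reached 0.139. Vehicle pools on another slide were near the ANP level: E1A_r60_a22 was at 1.35, 1.06 and 1.00 on the ANP arrays, against 0.44, 0.41 and 0.40 on the vehicle arrays of day 28 and 0.81 and 0.98 on the vehicle pools of days 1 and 7. Of the 467 genes called higher, 208 had a log2 ratio above the median spike-in difference. The ANP arrays lie on a slide of their own, and slide and treatment cannot be told apart.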

How the results depend on the processing

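The counts of genes called at day 28, 467 higher and 292 lower, were 814 and 536 with normexp correction, 222 and 124 without a filter on dim probes, 144 and 149 with only the 6 arrays, 1137 and 810 with slide as a random block, and 729 higher against both vehicle groups. In the slide block the correlation between arrays of 1 slide was -0.102, and each group of day 28 lay on a single slide. Larger counts with this block therefore do not separate treatment from slide. Leaving out 1 array gave 98 to 571 higher and 31 to 328 lower. Scaling to the median gave 688 higher and 223 lower, a larger share of higher calls. For probes, 1635 higher and 1001 lower, the counts were 2649 and 1885 with normexp, 838 and 493 without a filter, 516 and 471 with 6 arrays, 4021 and 2920 with slide, 2682 higher against both vehicle groups, and 333 to 2274 and 88 to 1547 without 1 array. With the replicate number as a block, although the numbers do not pair the samples, 212 genes were higher and 142 lower, and 704 and 424 probes. The 759 calls kept their direction under the settings run, except that 754 did against both vehicle groups and that only 724 were tested, all with the same direction, where probes had to be well above background on all 6 arrays.

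Of the difference between the effects of day 28 and day 14, with 0 probes higher and 0 lower, 3 probes were lower without a filter and 1 with slide as a random block. Without 1 array it had 0 to 2 higher (2 without ANP replicate 1 of day 14) and 0 to 2 lower (2 without ANP replicate 3 of day 14). The vehicle comparison, with 740 genes higher and 405 lower, had 482 and 190 without a filter, 1234 and 930 with slide, and 227 to 900 and 69 to 517 without 1 array.

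Against both vehicle groups the list median was 0.319 for serine and folate enzymes, 0.194 for heat shock, -0.0067 for tubular injury, -0.041 for EGF family, -0.0063 for immediate early, -0.050 for cell cycle, 0.232 for p53, -0.298 for matrix, -0.230 for macrophage, -0.270 for interferon, 0.117 for hypoxia, 0.0084 for convoluted proximal tubule, 0.102 for thick ascending limb, -0.123 for intercalated cell, -0.125 for distal convoluted tubule, -0.272 for podocyte and 0.011 for adipocyte genes. With quantile normalization it was 0.527 for glutathione S-transferase, -0.145 for cytochrome P450, -0.050 for serine and folate, -0.0016 for heat shock and -0.163 for tubular injury genes. Scaling to the median gave 0.081 for serine and folate, 0.134 for heat shock, 0.193 for p53, 0.0925 for hypoxia and -0.013 for endothelial genes, and normexp gave 0.143 for heat shock and -0.088 for EGF family genes. Genes that did not pass turned sign: against both vehicle groups Spp1 was at -0.24, Egf at -0.059, Slc7a13 at -0.034, Clu at 0.21 and Slc5a2 at 0.011; with quantile normalization Slc7a13 was at -0.017 and Havcr1 at 0.033, and with scaling to the median Havcr1 was at 0.031. The cause was not tested.

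Without 1 array, list medians ranged from 0.582 to 0.878 for NRF2, -0.150 to 0.0388 for cytochrome P450, -0.0090 to 0.118 for serine and folate, 0.0255 to 0.165 for heat shock, -0.163 to 0.0062 for tubular injury, 0.0814 to 0.185 for p53, -0.254 to -0.128 for chemokine, -0.616 to -0.308 for lymphocyte, -0.137 to 0.0597 for interferon, -0.417 to -0.218 for principal cell, -0.555 to -0.347 for intercalated cell, -0.205 to 0.0573 for muscle and -0.0014 to 0.159 for claudin and connexin genes. Among genes that did not pass, Lcn2 ranged from -0.26 to 1.44, Slc7a13 from -0.028 to 0.295, Havcr1 from -0.29 to 0.31, Clu from -0.45 to 0.021 and Aqp2 from -0.59 to 0.13.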
